A study of Mus musculus with 31 samples.

Results

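The receptors for glucocorticoid hormone and genes that they control were followed in the basolateral amygdala (BLA) of mice that carry extra copies of human CYFIP1. The set was chosen by symbol in the GENCODE annotation of GRCm38 and holds 10 of the 48709 genes counted. They are the receptor genes Nr3c1 and Nr3c2, the enzyme gene Hsd11b1 and the response genes Fkbp5, Sgk1, Tsc22d3, Zbtb16, Pdk4, Plin4 and Cdkn1a. All 10 were among the 17428 genes left by a filter on low counts, which asked for 10 or more reads in no fewer than 20% of the mice.

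Corticosterone, the main glucocorticoid of mice, is released from the adrenal gland with the daily rhythm and under stress. In the cell it binds the glucocorticoid receptor (Nr3c1) and, with higher affinity, the mineralocorticoid receptor (Nr3c2), which are held ready by Hsp90 and its co-chaperones and then move to the nucleus to act on glucocorticoid response elements. Both receptors are present in the amygdala, and the transcripts of their target genes are widely read as a sign of recent hormone action.

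RNA was measured by QuantSeq, which reads the 3′ ends of polyadenylated transcripts, in 31 mice, 1 library per mouse. The transgene is a bacterial artificial chromosome (BAC) with human CYFIP1, injected into C57BL/6N pronuclei, and both lines are on the C57BL/6N background. CYFIP1 OE mice carried the transgene and WT mice were controls without it. The line labelled 1 had 8 WT mice aged 59 to 61 days and 7 CYFIP1 OE mice aged 59 to 77 days, and the line labelled 3 had 8 WT mice aged 58 to 60 days and 8 CYFIP1 OE mice aged 58 to 64 days. Each of these groups held 4 males and 4 females, other than the CYFIP1 OE group of line 1 with 3 males and 4 females, and all 4 mice aged 77 days were in that group. Mouse names that share all but their last number formed 10 name groups, of which 5 held both genotypes. The labels do not say that a name group is a litter.

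Promoter windows are shown first for Sgk1 and Tsc22d3, whose levels are related to each other below, and for Fkbp5, so that the letters the receptor is known to bind can be seen. The windows run from 250 bases before to 50 bases after a transcript start and were taken from RefSeq on GRCm38.p6, which held 16 windows for 8 of the 10 members. A glucocorticoid response element was searched as GNACANNNTGTNC, which reads the same on both strands, and its single hexamer as AGAACA or, on the other strand, TGTTCT. A full element contains such hexamers when its open letters allow it, so the 2 searches overlap. Capitals mark a match to either search, and each sequence is given 5′ to 3′ on the strand of the gene.
Sgk1, chr10:21993640-21993939, + strand: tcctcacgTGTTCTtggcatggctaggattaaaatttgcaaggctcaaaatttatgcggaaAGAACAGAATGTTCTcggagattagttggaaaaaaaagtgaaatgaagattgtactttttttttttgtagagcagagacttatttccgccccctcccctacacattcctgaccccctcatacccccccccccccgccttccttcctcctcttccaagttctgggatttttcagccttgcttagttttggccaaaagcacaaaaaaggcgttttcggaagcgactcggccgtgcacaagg
Tsc22d3, chrX:140600473-140600772, - strand: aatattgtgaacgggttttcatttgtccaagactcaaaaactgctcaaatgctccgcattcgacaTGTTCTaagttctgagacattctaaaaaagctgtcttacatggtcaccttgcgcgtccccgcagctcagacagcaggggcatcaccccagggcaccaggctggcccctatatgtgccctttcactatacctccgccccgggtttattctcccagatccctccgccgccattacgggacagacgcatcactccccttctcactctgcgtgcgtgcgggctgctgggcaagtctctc
Fkbp5, chr17:28486100-28486399, - strand: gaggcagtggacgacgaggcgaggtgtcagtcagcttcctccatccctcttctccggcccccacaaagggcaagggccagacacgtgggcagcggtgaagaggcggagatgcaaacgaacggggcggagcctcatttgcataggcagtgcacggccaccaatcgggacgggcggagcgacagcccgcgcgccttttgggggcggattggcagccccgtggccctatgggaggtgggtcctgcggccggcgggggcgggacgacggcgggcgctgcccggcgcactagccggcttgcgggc

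The full element was present in 156 of 32851 mouse promoter windows (0.47%), and among the 16 windows of the members in 1. It lay 188 bases before the start of the Sgk1 transcript shown, within the run of capitals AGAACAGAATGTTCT. Single hexamers were present in 6233 of the promoter windows (18.97%) and in 4 windows of the members, 3 of the 6 windows of Sgk1 and 1 of the 3 of Tsc22d3, where it lay 185 bases before the start. The window of Fkbp5 held neither, which says only that these letters are absent from this stretch. A match is a match of letters and not a measured binding site.

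Libraries held between 5286708 and 8685308 reads counted on genes, so that a single read was worth 0.101 to 0.19 CPM. CPM here are counts scaled to a common library size after TMM normalization, and because QuantSeq gives 1 tag per transcript they do not grow with transcript length. The standardized connectivity of a library, a Z-score of how strongly its profile correlates with those of the others, was -4.74 for CYFIP1 OE replicate 1, a male of the line labelled 3, and at least -1.18 for every other mouse. In that mouse 19.13% of the counts came from a single gene, against 9.99 to 15.39% for the top gene of the others. Its summed receptor chaperone genes stood at 6442 CPM, where the others had 3207 to 5316 CPM. The paper removed samples with a standardized connectivity under -2, and does not say which these were. Here this mouse was kept in the main fits and left out in alternatives. The punches were described with 7 genes of BLA principal neurons, whose sum had a median of 515 CPM in WT and 549 CPM in CYFIP1 OE mice. It ranged from 108 to 966 CPM in WT and from 138 to 1521 CPM in CYFIP1 OE mice. None of the 7 genes was at 0 reads throughout a group, which does not test the tissue label. Markers of striatal neurons summed to 135 to 3375 CPM (median 2216) in WT and 193 to 3805 CPM (median 2152) in CYFIP1 OE mice. At the median these sums were above those of the BLA genes, though sums of different genes do not give shares of cells. Choroid plexus markers summed to 19.5 to 8431 CPM and 40.2 to 4744 CPM, so that markers of neighbouring structures differed widely between libraries of either genotype. In such bulk RNA fewer cells of a type and less RNA per cell cannot be told apart.

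The members differed widely in level. Nr3c1 (chromosome 18, 39410545 to 39519421, - strand) was the most abundant, at 62.8 ± 13.5 CPM (SD, n = 31 for this and the following means). Tsc22d3 (chromosome X, 140539528 to 140600659, - strand), a leucine zipper protein that restrains inflammatory transcription, had 46.1 ± 11.2 CPM. Sgk1 (chromosome 10, 21882184 to 21999903, + strand), a kinase that regulates ion channels and transporters, had 44.9 ± 24.2 CPM. Fkbp5 (chromosome 17, 28399094 to 28517527, - strand), the Hsp90 co-chaperone that lowers the affinity of the glucocorticoid receptor for its hormone, had 22.7 ± 5.86 CPM.

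The remaining members were lower. Hsd11b1 (chromosome 1, 193221634 to 193264075, - strand), which regenerates active corticosterone inside the cell, had 9.79 ± 3.34 CPM, and the mineralocorticoid receptor Nr3c2 (chromosome 8, 76899442 to 77245012, + strand) had 8.94 ± 3.84 CPM. Cdkn1a (chromosome 17, 29090976 to 29100727, + strand), an inhibitor of cyclin-dependent kinases, had 6.95 ± 2.69 CPM. Zbtb16 (chromosome 9, 48654297 to 48836222, - strand), a zinc finger transcription factor that glucocorticoids induce in many cell types, had 3.83 ± 4.28 CPM. Plin4 (chromosome 17, 56100591 to 56109803, - strand), a lipid droplet coat protein, had 2.15 ± 1.88 CPM and Pdk4 (chromosome 6, 5483351 to 5496309, - strand), which inhibits pyruvate dehydrogenase, 1.39 ± 1.20 CPM. Plin4 had 0 reads in WT replicate 12 and Pdk4 in CYFIP1 OE replicate 11, which allows levels of up to 0.392 and 0.446 CPM there (3 reads, counting error only).

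The order of the levels was clear in places and unclear in others. Nr3c1 was above Tsc22d3 in 26 of 31 mice, Sgk1 above Fkbp5 in 28 and Fkbp5 above Hsd11b1 in 29. Tsc22d3 was above Sgk1 in only 18 mice, Hsd11b1 above Nr3c2 in 18, Zbtb16 above Plin4 in 19 and Plin4 above Pdk4 in 18. The order of these neighbours thus changed from mouse to mouse, and their differences were not tested.

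**Figure D1:**
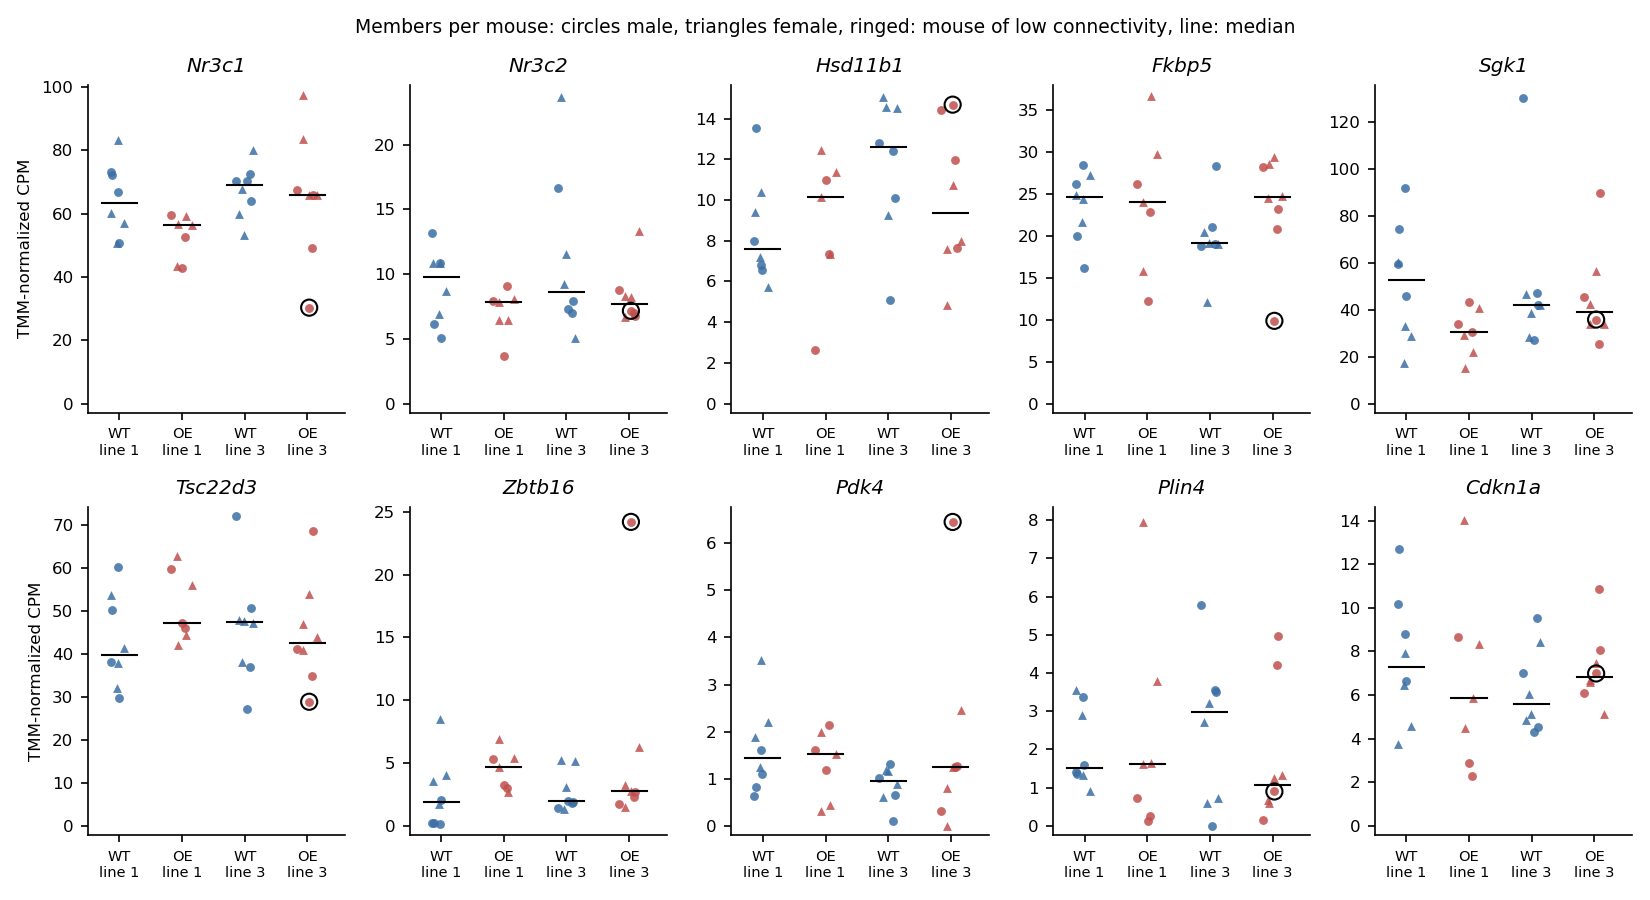
Level of each member in TMM-normalized CPM (vertical axes, linear) in the 31 mice by genotype and line, with circles for males, triangles for females, a line at the median of each group and a ring around CYFIP1 OE replicate 1, the mouse of low connectivity. The genotypes overlap in every panel, single mice stand far above the rest for Sgk1 (130 CPM), Nr3c2 (23.7 CPM), Zbtb16 (24.2 CPM) and Pdk4 (6.45 CPM), and the ringed mouse is the lowest for Nr3c1 and Fkbp5.

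The members varied between mice to very different degrees. The biological coefficient of variation, estimated by edgeR after sex, line and genotype, was 21.4% for Nr3c1, 24.6% for Tsc22d3 and 26.4% for Fkbp5, beside a median of 34.2% over all genes tested. It was 38.5% for Sgk1, which was above that of 95.1% of the 2002 genes within 0.5 of its mean log2 CPM. For Zbtb16 it was 74.5%, above 95.3% of the 2541 genes of like level, and for Plin4 87.4%, above 92.6% of 2659. Sgk1, Zbtb16 and Plin4 were thus the members whose levels spread most for their abundance. The highest mouse exceeded the lowest 8.54-fold for Sgk1, 6.47-fold for Nr3c2, 3.72-fold for Fkbp5, 3.22-fold for Nr3c1 and 2.66-fold for Tsc22d3. Name group took 50.1% of the sum of squares of Hsd11b1 on the log2 CPM scale after sex, line and genotype, and between 13.6% (Fkbp5) and 28.1% (Zbtb16) of that of the other members, with 8 of 30 degrees of freedom.

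The first comparison asked whether the stress hormone system of the BLA differed between CYFIP1 OE and WT mice. After adjustment over all genes, edgeR called 0 of 17428 genes (0%) and DESeq2 called 0, so none of the 10 members was called. At an unadjusted p under 0.05 the edgeR fit had 750 genes (4.3%) and 2 of the 10 members, Zbtb16 and Nr3c2. The members' log2 differences ranged from -0.40 to 1.08, and all of the 10 adjusted p-values were 0.999.

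Zbtb16 had the largest difference. Its levels were 0.116, 1.95 and 8.50 CPM (lowest, median and highest) in the 16 WT mice and 1.48, 3.27 and 24.2 CPM in the 15 CYFIP1 OE mice. The ranges overlapped, and 12 of the 15 CYFIP1 OE mice exceeded the WT mean of 2.66 ± 2.22 CPM (SD), while the CYFIP1 OE mean was 5.07 ± 5.54 CPM. The log2 difference was 1.08 (standard error 0.42, edgeR p = 0.0151, adjusted p = 0.999). Without CYFIP1 OE replicate 1, the highest mouse, it was 0.57 (standard error 0.33, p = 0.0953). With 5 surrogate variables in the model, which stand for hidden differences between libraries, it was 0.56 (standard error 0.34, p = 0.11).

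The Zbtb16 values divided by sex. WT males had 0.116, 1.63 and 2.10 CPM (lowest, median and highest of 8) and CYFIP1 OE males 1.72, 3.04 and 24.2 CPM (of 7), whereas WT females had 1.33, 3.79 and 8.50 CPM (of 8) and CYFIP1 OE females 1.48, 3.97 and 6.89 CPM (of 8). Thus the CYFIP1 OE males overlapped the WT males in the lowest mouse alone, and the females of both genotypes shared 1 range. The 3 lowest mice were WT males of the name group X426.B, which held no CYFIP1 OE mouse. They had 1 or 2 reads each, so that their levels lay near the floor. In line 1 the WT males, all of X426.B, had 0.116 to 2.10 CPM and the CYFIP1 OE males 3.04 to 5.29 CPM. In line 3 the WT males had 1.42 to 1.96 CPM. The CYFIP1 OE males of line 3 had 1.72, 2.33 and 2.69 CPM, and 24.2 CPM in replicate 1. In males alone the log2 difference was 2.25 (standard error 0.59, edgeR p = 0.00118, adjusted p = 0.93) and in females alone 0.02 (standard error 0.36, p = 0.966). The interaction of genotype and sex, a fit added after the data had been seen, was 2.20 (standard error 0.74, p = 0.00534, adjusted p = 0.76), in a comparison in which 1113 of 17428 genes (6.39%) had a p under 0.05 and 0 (0%) passed adjustment. Without CYFIP1 OE replicate 1 the interaction was 1.24 (standard error 0.64, p = 0.0609) and the difference in males 1.41 (standard error 0.58, p = 0.026). X424.C was the only name group with males of both genotypes, and its CYFIP1 OE male was replicate 1. Among the males without that mouse, genotype and name group cannot be told apart. Pdk4 was the other member with an interaction p under 0.05, at 1.67 (standard error 0.82, p = 0.0497), and at 0.90 (p = 0.263) without that mouse, which had the highest Pdk4 of all.

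**Figure D2:**
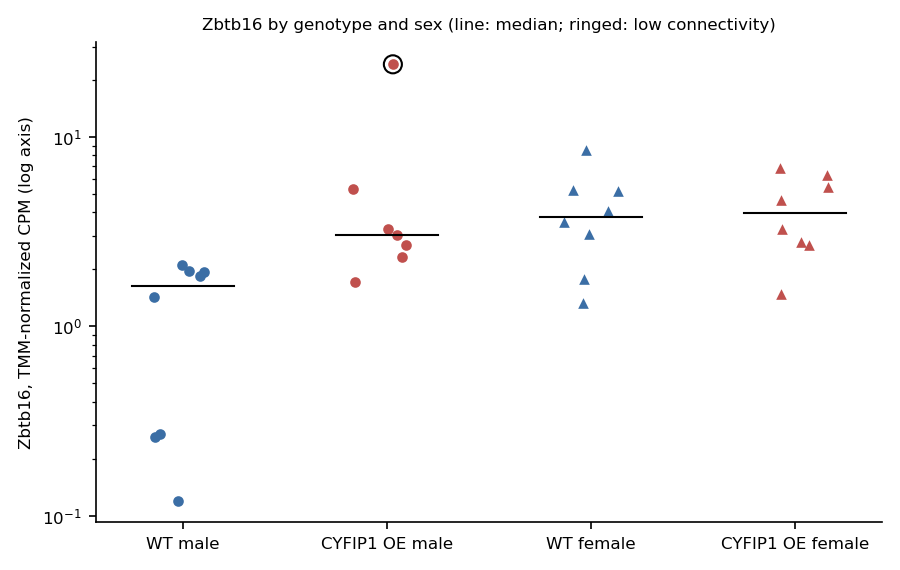
Zbtb16 in TMM-normalized CPM (vertical axis, log scale) for each mouse by genotype and sex, with a line at the median and a ring around CYFIP1 OE replicate 1. The 8 WT males lie between 0.116 and 2.10 CPM and the 7 CYFIP1 OE males between 1.72 and 24.2 CPM, while the females of both genotypes overlap.

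Nr3c2, the high-affinity receptor, was lower in CYFIP1 OE mice. It had 5.03, 9.01 and 23.7 CPM (lowest, median and highest) in WT and 3.66, 7.88 and 13.3 CPM in CYFIP1 OE mice, and the ranges overlapped. The means were 10.1 ± 4.77 CPM (SD, n = 16) in WT and 7.73 ± 2.03 CPM (SD, n = 15) in CYFIP1 OE mice, and 1 of the 15 CYFIP1 OE mice exceeded the former. The log2 difference was -0.40 (standard error 0.18, edgeR p = 0.0351, adjusted p = 0.999). It was -0.27 (p = 0.12) without WT replicate 2, the mouse with the highest level, and -0.22 (standard error 0.27, p = 0.425) with name group in place of line. With 5 surrogate variables it was -0.25 (standard error 0.20, p = 0.221). Endothelial markers summed to 153 CPM at the median in WT and 141 CPM in CYFIP1 OE mice, with ranges of 137 to 203 and 120 to 176 CPM, none of the 8 markers was at 0 reads throughout a group, and with their score in the model the Nr3c2 difference was -0.18 (standard error 0.17, p = 0.302). Of 6 choroid plexus markers, 3 were lower in CYFIP1 OE mice at an unadjusted p under 0.05, beside 4.3% of all genes, and 0 passed adjustment. The part of those markers was not tested.

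For the other 8 members no genotype difference had a p under 0.05. Nr3c1 itself had 65.7 ± 9.83 CPM in WT and 59.8 ± 16.4 CPM in CYFIP1 OE mice, a log2 difference of -0.16 with a 95% interval from -0.39 to 0.06 (edgeR p = 0.15). Fkbp5 had 21.7 ± 4.57 and 23.8 ± 6.98 CPM, a log2 difference of 0.13 with an interval from -0.16 to 0.41. Tsc22d3 differed by 0.11 (-0.15 to 0.36), Cdkn1a by 0.04 (-0.39 to 0.46) and Hsd11b1 by -0.09 (-0.46 to 0.29). Sgk1 was at 50.9 ± 28.4 CPM in WT and 38.5 ± 17.4 CPM in CYFIP1 OE mice. Of the CYFIP1 OE mice 2 of 15 exceeded the WT mean, and the log2 difference was -0.37 (-0.78 to 0.05, p = 0.0796). It was -0.15 with the oligodendrocyte score or with 5 surrogate variables in the model, -0.20 without the mice aged 77 days and -0.12 with name group in place of line, and the 12 oligodendrocyte markers had a median log2 difference of -0.35 between the genotypes. It was -0.64 (p = 0.0167) in line 1 and -0.11 (p = 0.7) in line 3, and -0.25 without WT replicate 1. For Pdk4 and Plin4, which had few reads, the intervals ran from -0.56 to 1.24 and from -1.18 to 0.79, so that 1 log2 unit upward for Pdk4 and downward for Plin4 lay within them.

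**Figure D3:**
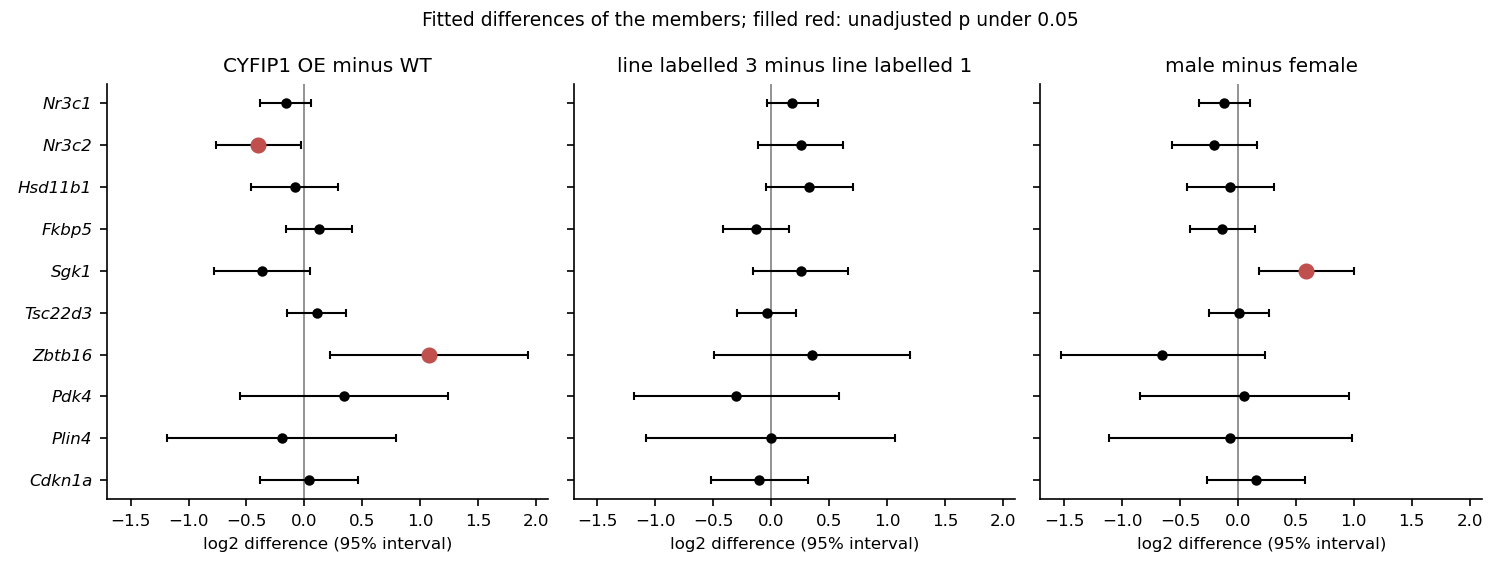
Log2 differences of the 10 members (horizontal axes) from the edgeR fit for genotype, line and sex, with 95% intervals, and red points where the unadjusted p was under 0.05. The red points are Nr3c2 and Zbtb16 for genotype and Sgk1 for sex, and the intervals are widest for Zbtb16, Pdk4 and Plin4.

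The genotype differences were then set beside each other in the 2 lines, which asks whether they depend on the line. In edgeR 0 of 17428 genes (0%) passed adjustment for the interaction, DESeq2 called 2, and 1412 genes (8.1%) had an unadjusted p under 0.05. None of the 10 members had an interaction p under 0.05, the smallest being that of Pdk4 (1.27, standard error 0.84, p = 0.14, adjusted p = 0.734). Zbtb16 had 2.58 ± 2.82 CPM in WT and 4.47 ± 1.53 CPM in CYFIP1 OE mice of line 1, and 2.75 ± 1.61 and 5.60 ± 7.66 CPM in line 3. Nr3c2 had 9.08 ± 2.82 and 7.09 ± 1.78 CPM in line 1, and 11.1 ± 6.21 and 8.29 ± 2.18 CPM in line 3. In the 5 name groups with mice of both genotypes, the CYFIP1 OE mice had the higher mean in 3 for Zbtb16, Fkbp5, Sgk1, Tsc22d3 and Cdkn1a, in 2 for Pdk4 and Hsd11b1 and in 1 for Nr3c1, Nr3c2 and Plin4.

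The lines themselves did not differ in any member by an unadjusted p under 0.05. Over all genes 576 (3.31%) had such a p, and 0 (0%) passed adjustment in edgeR and 0 in DESeq2. Hsd11b1 came nearest, at 8.66 ± 2.87 CPM in line 1 (n = 15) and 10.9 ± 3.48 CPM in line 3 (n = 16), a log2 difference of 0.33 with an interval from -0.05 to 0.71 (edgeR p = 0.0851). Line and name group are nested, so that a line difference is one between the sampled name groups.

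Between males and females the log2 difference was largest in size for Zbtb16, at -0.65 (standard error 0.43, edgeR p = 0.142), and the p smallest for Sgk1. Sgk1 had 25.5, 45.4 and 130 CPM (lowest, median and highest) in the 15 males and 15.3, 33.8 and 60.4 CPM in the 16 females. The highest 4 values were all from males, the ranges overlapped, and 11 of 15 males were above the female mean. The means were 54.9 ± 29.6 and 35.6 ± 12.6 CPM (SD), and the log2 difference was 0.59 (standard error 0.20, edgeR p = 0.00634, adjusted p = 0.97). It was the only member of 10 with a p under 0.05, against 806 of all genes (4.62%), while 11 genes (0.0631%) passed adjustment. The difference lay between 0.48 and 0.67 when any single mouse was left out. It was 0.71 (standard error 0.24) in line 1 and 0.44 (standard error 0.28) in line 3, and 0.80 (standard error 0.27) among WT and 0.32 (standard error 0.24) among CYFIP1 OE mice, and the interaction of sex and genotype had a p of 0.23.

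Thalamus and blood markers lay higher in males at an unadjusted p, and none of them passed adjustment for sex. Of 6 thalamus markers, 3 were higher in males at an unadjusted p under 0.05, beside 4.62% of all genes, and their sum ranged from 88.6 to 372 CPM in males and from 87.0 to 177 CPM in females. Of 5 blood markers, 3 were higher in males, with sums of 323 to 836 CPM against 205 to 520 CPM. No marker of either list was at 0 reads in all mice of a sex, and their part in the Sgk1 difference was not tested. None of the 12 oligodendrocyte markers had a p under 0.05 for sex, and with their score in the model the Sgk1 difference was 0.47 (standard error 0.14, p = 0.00246, adjusted p = 0.788). After 5 surrogate variables were added it was 0.69 (standard error 0.11) with an adjusted p of 0.000639.

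Differences between name groups within a line were tested with 8 coefficients at once. Over all genes 1184 (6.79%) had an unadjusted p under 0.05, and 2 (0.0115%) passed adjustment in edgeR against 171 in DESeq2, none of which was a member. Hsd11b1 was the single member with a p under 0.05 (edgeR p = 0.0409, adjusted p = 0.72). Its 3 mice of X605A.A had 11.96 to 14.6 CPM and its 4 mice of X424.C 10.1 to 15.1 CPM, while the 7 mice of X426.B had 5.73 to 13.5 CPM and the 6 of X605B.A 4.85 to 14.5 CPM. The first of these ranges thus lay high, and all of them overlapped. Zbtb16 (p = 0.0648) and Sgk1 (p = 0.0957) followed.

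The members were next compared with one another from mouse to mouse, which asks whether targets of the receptors vary together. Among the 45 pairs of members the median Pearson r of log2 CPM was 0.086, with a range from -0.525 to 0.545, 28 pairs had a positive r, and 9 had a permutation p under 0.05. Among pairs of response genes these were Sgk1 with Tsc22d3 (r = 0.545) and with Zbtb16 (-0.424), Plin4 with Cdkn1a (0.460) and with Tsc22d3 (0.445), and Zbtb16 with Pdk4 (0.406, and 0.240 without CYFIP1 OE replicate 1). Fkbp5 and Sgk1 had an r of 0.007 (Spearman rho 0.008, permutation p = 0.969 for r). Genes outside the set followed single members as well. In limma with sex, line and genotype, 4912 of 17427 genes had an unadjusted p under 0.05 with Nr3c1. The number was 3985 with Fkbp5, 3579 with Zbtb16, 3246 with Sgk1 and 1168 with Plin4, the fewest. The 9 pairs are therefore not read as variation particular to the members.

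**Figure D4:**
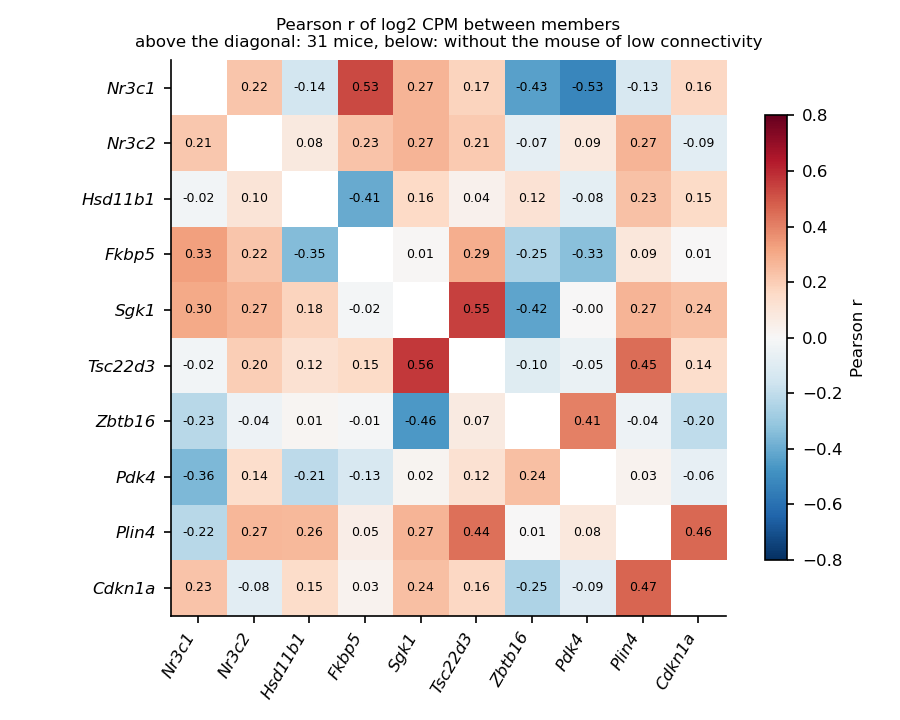
Pearson r between log2 CPM of each pair of members, above the diagonal over 31 mice and below it without CYFIP1 OE replicate 1 (colour scale from blue for negative to red for positive, value in each cell). The pair of Sgk1 and Tsc22d3 is at 0.55 and 0.56, whereas Nr3c1 and Fkbp5 go from 0.53 to 0.33.

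Sgk1 and Tsc22d3 were the pair with the highest r. It was 0.545 (permutation p = 0.00162, Spearman rho 0.467 with p = 0.0085, n = 31), 0.484 without the 2 mice farthest from the Sgk1 median, 0.335 in line 1 and 0.815 in line 3, and 0.757 among WT and 0.413 among CYFIP1 OE mice. With sex, line and genotype in the model, limma gave a rise of 0.44 log2 units of Tsc22d3 per log2 unit of Sgk1 (standard error 0.08, adjusted p = 0.00246), and the level of Sgk1 was related to 324 genes positively and 281 negatively of 17427 (3.47%). The value was 0.42 (adjusted p = 0.00159) without CYFIP1 OE replicate 1, when 702 of 17718 genes were called. Among CYFIP1 OE mice alone the value was 0.48 and 0 genes were called at an adjusted p under 0.05 (adjusted p = 0.767 for Tsc22d3). WT replicate 1 had the highest level of both genes, 130 CPM of Sgk1 and 72.0 CPM of Tsc22d3, and without it 206 genes were called and the adjusted p of Tsc22d3 was 0.0194.

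Sgk1 was related to transcripts of myelinating cells. All 12 oligodendrocyte markers rose with Sgk1 at an adjusted p under 0.05, with a median of 0.94 log2 units per log2 unit of Sgk1 beside -0.007 over all genes, and all 12 did so without CYFIP1 OE replicate 1. In a fit of every gene to the oligodendrocyte score, which called 1086 of 17428 genes (6.23%), Sgk1 rose by 0.59 (standard error 0.10, adjusted p = 0.000132) and Tsc22d3 by 0.27 (standard error 0.08, adjusted p = 0.0249) log2 units per unit of the score. The summed markers ranged from 1551 to 9402 CPM in WT and from 1167 to 5441 CPM in CYFIP1 OE mice, none was at 0 reads throughout a group, and WT replicate 1 had the highest sum. With the score added to the model the rise of Tsc22d3 with Sgk1 was 0.43 (standard error 0.12, p = 0.00117, adjusted p = 0.289) and 0 genes were called. Markers of other cells moved with Sgk1 too, 2 of 10 for astrocytes and 2 of 6 for thalamus upward and 3 of 7 for BLA neurons downward. Over all genes 3.47% were called with Sgk1.

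**Figure D5:**
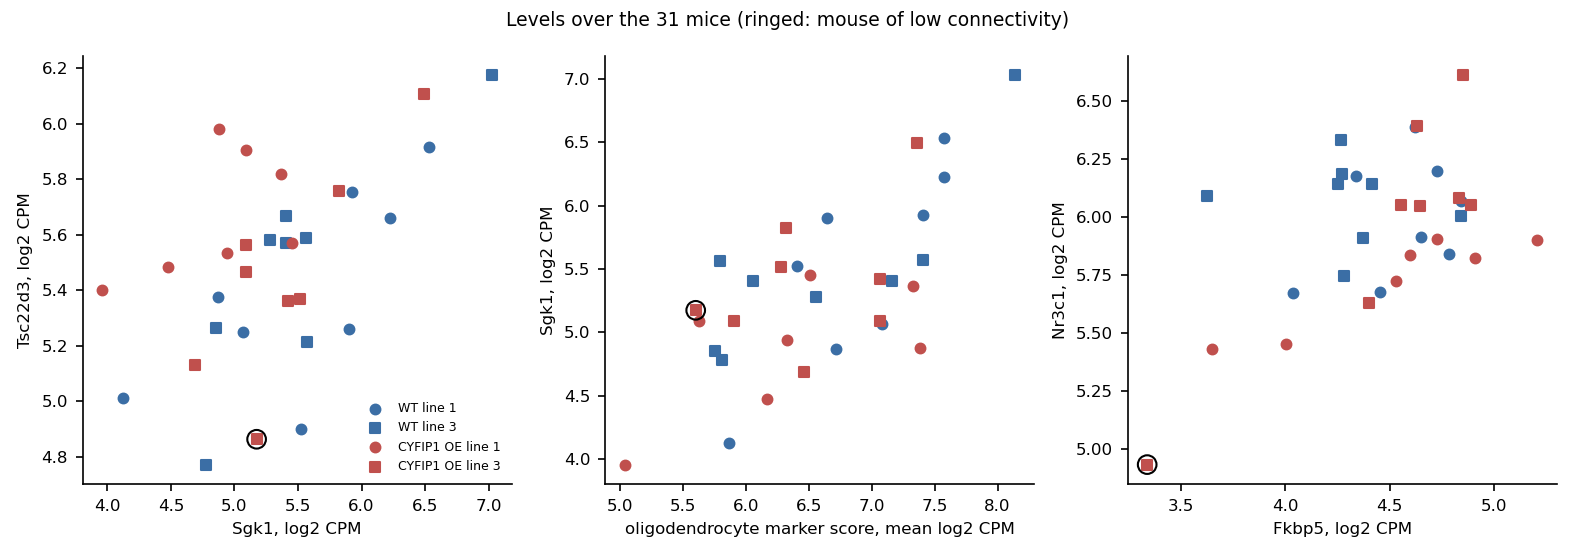
Log2 CPM of Tsc22d3 against Sgk1, of Sgk1 against the mean log2 CPM of 12 oligodendrocyte markers, and of Nr3c1 against Fkbp5 in the 31 mice, by genotype (colour) and line (circles 1, squares 3), with a ring around CYFIP1 OE replicate 1. Sgk1 rises with Tsc22d3 (r = 0.545) and with the marker score (r = 0.686), and the ringed mouse is at the low end of both axes for Fkbp5 and Nr3c1.

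Other genes that glucocorticoids induce were examined with Sgk1 and Fkbp5 in turn. Of 28 such genes tested, 4 rose with Sgk1 at an adjusted p under 0.05 and 0 fell, with a median of 0.22 beside -0.007 over all genes, and the same numbers were called without CYFIP1 OE replicate 1. With the astrocyte score in the model 1 was called, with name group as a block 3, and in WT mice alone 7. With the oligodendrocyte score, in either line alone or in CYFIP1 OE mice alone, 0 were called. Over all genes those fits called 0 with the score, 262 in line 1, 2 in line 3 and 0 in CYFIP1 OE mice, against 510 in WT mice alone. In the main fit the 3 with the smallest p were Arrdc3, an arrestin-like adaptor of receptor trafficking (0.62, standard error 0.13, adjusted p = 0.00604 from limma), Glul, the glutamine synthetase of astrocytes (0.26, standard error 0.06, adjusted p = 0.00992), and Nfkbia, the inhibitor of NF-kB (0.36, standard error 0.08, adjusted p = 0.011). Arrdc3 and Nfkbia also rose with Tsc22d3, whose level was related to 192 of 17427 genes (1.1%), and to 48 of 17718 without CYFIP1 OE replicate 1. The genes whose levels were most like that of Sgk1 over the 31 mice were Slain1 (r = 0.764), Pls1 (r = 0.760) and Gltp (r = 0.760), and for Tsc22d3 they were Fam177a (r = 0.719), Elovl5 (r = 0.714) and Cd81 (r = 0.709).

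Fkbp5, often used as the transcript of receptor activity, was related to the level of the receptor gene itself. Its own values were 12.1, 20.7 and 28.4 CPM (lowest, median and highest) in WT and 9.86, 24.5 and 36.7 CPM in CYFIP1 OE mice. Nr3c1 rose by 0.49 log2 units per log2 unit of Fkbp5 (standard error 0.12, adjusted p = 0.0153 from limma), and it was the single member among the 1042 of 17427 genes (5.98%) called. The Pearson r of the pair was 0.525 (permutation p = 0.00296) and Spearman's rho 0.249 (p = 0.177, n = 31). The relation was weaker without CYFIP1 OE replicate 1, the lowest mouse for both genes at 9.86 CPM of Fkbp5 and 30.3 CPM of Nr3c1. There r was 0.331, and it was 0.285 without the 2 mice farthest from the median of Nr3c1. Within groups r was 0.570 in line 1, which does not hold that mouse, 0.608 in line 3, 0.052 among WT and 0.780 among CYFIP1 OE mice. In limma the slope without CYFIP1 OE replicate 1 was 0.35 (standard error 0.12, unadjusted p = 0.00896, adjusted p = 0.324). In that fit 0 of 17718 genes were called, with 1809 at an unadjusted p under 0.05. The slope was 0.10 among WT mice alone (standard error 0.22, adjusted p = 0.998).

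Genes called with Fkbp5 in the whole set of mice, 5.98% of all genes, came from several lists. Of 12 receptor chaperones 3 fell and 0 rose, namely Hsp90aa1 (-0.35, standard error 0.09, adjusted p = 0.0197), Hsp90ab1 (-0.43, standard error 0.11, adjusted p = 0.02) and Hspa8 (-0.39, standard error 0.11, adjusted p = 0.029). Of 10 coregulators 2 rose, Ncoa2 and Hdac2, and of 28 other induced genes 1 rose, Klf9 (0.55, standard error 0.17, adjusted p = 0.0419). The 1 of 28 did not exceed the share over all genes. Of 12 clock genes 3 rose, led by Dbp (2.25, standard error 0.47, adjusted p = 0.00709), and of 7 striatal neuron markers 3 rose. Without CYFIP1 OE replicate 1 none of these was called. Among the most alike genes over the 31 mice were Spop (r = 0.755), Stk26 (r = 0.754), Spata13 (r = 0.748) and Gid8 (r = 0.742), and the most opposed Ganc (r = -0.736), Mapt (r = -0.717) and Cenpc1 (r = -0.710).

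Nr3c1 was related to 2222 of 17427 genes (12.8%), the most of any member over all mice, but to 83 of 17718 without CYFIP1 OE replicate 1, when Sgk1 with 702 had more. Zbtb16 and Pdk4 fell with it, with slopes of -1.83 (standard error 0.53, adjusted p = 0.02) and -1.56 (standard error 0.52, adjusted p = 0.0423) log2 units per log2 unit of Nr3c1 in limma. The mouse of low connectivity was the lowest for Nr3c1 and the highest for both others, and without it neither was called. The genes most like Nr3c1 were Ndfip2 (r = 0.832), Klhl2 (r = 0.828) and Impa1 (r = 0.825). Nr3c2, Pdk4, Cdkn1a and Hsd11b1 were each related to 0 genes by limma at an adjusted p under 0.05, with 1369, 2507, 1839 and 1328 genes at an unadjusted p under 0.05. Without CYFIP1 OE replicate 1 these numbers were 1605, 796, 2225 and 1029, so that the number for Pdk4 rested on that mouse. Plin4 was related to 1 gene, Arsg (r = 0.724).

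Beyond the members, the rest of the hormone pathway showed no gene that passed adjustment for genotype, line or sex in edgeR. For genotype an unadjusted p under 0.05 was found for 0 of 12 receptor chaperones, 0 of 10 coregulators, 2 of 4 ligand supply genes, 0 of 5 corticotropin signalling genes, 2 of 28 other glucocorticoid-induced genes and 0 of 3 other steroid receptors tested, beside 4.3% of all genes. The ligand supply genes were 1 higher and 1 lower, with the smallest p for Srd5a1, a steroid reductase (p = 0.0263), and the induced genes were also 1 higher and 1 lower, with the smallest p for Mertk (p = 0.00948). The median log2 difference of the 28 induced genes was -0.05, beside -0.005 over all genes. For sex the smallest p among them was that of Arrdc2 (p = 0.00163), the only one of the 28 under 0.05, and for line that of Galnt15 (p = 0.0218), likewise the only one.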

How the data were processed

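RNA from the BLA of 31 mice was sequenced by QuantSeq, with left and right punches pooled for each mouse. Reads were mapped by the authors with STAR (GRCm38), metrics came from Picard and MultiQC, and genes were quantified with Salmon. The expected counts deposited by the authors, in a separate table for each mouse, carry no normalization or filter. They were rounded here, and a gene was kept where 7 mice or more (20%) had 10 or more reads. Totals were 5286708 to 8685308 counts, which limits genes of few reads, and intervals and floors cover counting error or the fitted model only.

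Genotype, line, sex, name group and their interactions were tested with edgeR 4.0.16 (R 4.3.3, TMM, two-sided quasi-likelihood F test, Benjamini-Hochberg adjustment over all genes). Relations to the level of a gene were tested with limma 3.58.1 on log2 CPM (prior count 2) with sex, line and genotype as covariates, and as Pearson and Spearman correlations with 100000 two-sided permutations (numpy 2.4.6). The authors' 5 sequencing principal components were replaced, in an alternative, by 5 surrogate variables from sva 3.50.0. DESeq2 1.42.0, other filters and covariates, subsets and leaving out each mouse were further alternatives. Replicate numbers only name mice and pair none. Steps were tested on simulated data.

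The members and gene lists were chosen with earlier results of these data known. All members are named, with up to 3 called genes per direction and list, or the gene of smallest p, and genes among those most like a member, of which 1 is not reported here.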

Additional observations from a re-analysis of the deposited data

Results flagged for a closer look

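Within the 4 groups of genotype and line, the highest or lowest mouse of each member was compared with the rest by Dixon's ratio of CPM. In 6 of 40 groups a mouse had a gap beyond the 95% critical value. That value assumes normal data, whereas CPM of few reads are skewed, and the groups share mice. The count was therefore not set against chance. Among the 8 CYFIP1 OE mice of the line labelled 3, CYFIP1 OE replicate 1 stood apart for Fkbp5 (9.855 CPM, the others 20.8 to 29.4), Zbtb16 (24.19 CPM, the others 1.48 to 6.27) and Pdk4 (6.45 CPM, the others 0 to 2.47). It was the mouse of low connectivity. In the same group CYFIP1 OE replicate 3, a female, had 13.31 CPM of Nr3c2, where the others had 6.69 to 8.77. Among the 8 WT mice of that line, WT replicate 1 had 130.4 CPM of Sgk1, where the others had 27.2 to 47.3. It also had the highest sums of oligodendrocyte and thalamus markers of all mice, 9402 and 372 CPM. Among the 8 WT mice of the line labelled 1, WT replicate 11 had 8.503 CPM of Zbtb16, where the others had 0.116 to 4.04. It was the only WT mouse of its name group.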

How the results depend on the processing

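Replicate numbers only name mice, so no pairing by number could be fitted, and name group was used as a block instead. In genotype, line and sex, no member passed adjustment under any alternative other than Sgk1 for sex with 5 surrogate variables, where 1 member was called. Of 1747 recomputed differences and slopes 115 changed sign, and 2 of these had an unadjusted p under 0.05 in either fit, both in the relation to Fkbp5 in WT mice alone, where Zbtb16 was at 0.57 and Pdk4 at 0.24.

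Counts of genes past adjustment moved as follows. For line they were 2 without a filter and 1 with 5 surrogate variables, which gave 1 for genotype. For sex they were 4 with at least 10 reads in every mouse, 6 and 7 in the lines labelled 1 and 3, and 7 and 6 in WT and CYFIP1 OE mice alone, subsets with fewer mice that, for the genotypes, were added after the data were seen. For name group they were 171 with DESeq2, 4 with the filter in every mouse, and 0 with age, with the oligodendrocyte score or without the mouse of low connectivity. The interaction with line had 2 genes with DESeq2.

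For the relation to Fkbp5, 299 genes were called with name group as a block, 594 in CYFIP1 OE mice alone, and 0 in line 1, in WT mice alone and without the mouse of low connectivity, with 0 members in these 3 and in line 3. Leaving out each mouse in turn gave 0 to 1925 genes and 0 to 2 members for this relation (0 of both without CYFIP1 OE replicate 1, 1925 genes without replicate 2, 1607 genes and 2 members without WT replicate 16), 10 to 11 genes for sex and 0 for genotype and line. Apart from these, the causes of the moves were not tested.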

Other observations

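Several list sums moved with single members from mouse to mouse, in 200 pairs of member and list computed. The pairs given here were picked from these. The mean log2 CPM of 12 clock genes was correlated with Fkbp5 (r = 0.611, permutation p = 0.00061, Spearman rho 0.488 with p = 0.00621, n = 31), and r was 0.448 without the 2 mice farthest from the median, 0.430 without CYFIP1 OE replicate 1, 0.266 among WT and 0.801 among CYFIP1 OE mice. The clock score was not particular to Fkbp5, since its r with Nr3c1 was 0.626, and 0.409 without CYFIP1 OE replicate 1. Fkbp5 was also correlated with the striatal marker score (r = 0.483, and 0.322 without that mouse). The endothelial score was correlated with Nr3c2 (r = 0.510, permutation p = 0.00271, rho 0.519 with p = 0.00308), with r of 0.499 without the 2 farthest mice, 0.517 in line 1, 0.632 in line 3, 0.469 among WT and 0.434 among CYFIP1 OE mice. In limma, with sex, line and genotype in the model, that rise of Nr3c2 was 1.495 (standard error 0.46, p = 0.00245) with an adjusted p of 1.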
